A study of Mus musculus with 8 samples.

Results

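Klrd1, Klrk1, Klrc1, Klrc2, Klre1 and Klrg1, 6 of the 32285 features in the deposited tables, encode lectin-like receptors first known from natural killer (NK) cells. They were chosen by name and followed in pancreatic T cells of NOD mice, in which autoimmune diabetes arises spontaneously. The labels give all mice as diabetic NOD females, aged 3 to 4 months in one label and 3 to 5 months in the protocol. One library came from mice with active disease (glucose over 600 mg/dl) and one from mice at onset (250 mg/dl), both untreated and taken on day 1. Treated mice had a glucose of 200 to 300 mg/dl at entry and received either vehicle or PPCA, the pairing of nutlin-3 (50 mg/kg, an inhibitor of MDM2 that raises p53 activity) with MK-1775 (25 mg/kg, an inhibitor of the WEE1 kinase). Each arm has 1 library from day 2, day 3 and day 4, taken the day after the latest daily dose. Cells carrying CD45, CD3 and the beta chain of the T cell receptor were sorted, frozen and profiled with 10x 3′ libraries. The labels do not give the number of mice behind a library, so the p-values measure only the spread between these libraries, which may be technical.

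Klrd1 encodes CD94, the common partner chain of the NKG2 receptors. Klrc1 encodes NKG2A, which forms an inhibitory pair with CD94, and Klrc2 encodes NKG2C, which forms an activating pair. Both pairs bind Qa-1, the product of H2-T23. Klrk1 encodes NKG2D, an activating receptor for stress-induced ligands that signals through the adaptor encoded by Hcst. Klre1 encodes a chain that pairs with the products of Klri1 or Klri2. Klrg1 encodes an inhibitory receptor for cadherins, often read as a marker of terminally differentiated effector cells. On CD8 T cells these receptors appear after antigen experience, and NKG2D has been studied in NOD autoimmunity.

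The 8 libraries held 80470 cell barcodes and 419420275 unique molecular identifiers (UMIs, each counting 1 captured transcript), between 36934580 and 67603740 per library. After filters on genes and mitochondrial share and removal of 6752 likely doublets, 70750 cells stayed, and 70623 of them counted as T cells, with a sum of 2 UMIs or more over Cd3d, Cd3e, Cd3g, Trac, Trbc1 and Trbc2. CD8 cells were T cells in which Cd8a or Cd8b1 was detected but Cd4 was not, and CD4 cells the opposite. Neither gate took in 21.4% to 35.1% of a library's T cells. CD8 cells were divided by Ccl5, a chemokine gene of antigen-experienced CD8 T cells, into 6562 Ccl5-positive cells (480 to 1557 per library) and 15712 Ccl5-negative cells (1053 to 2892). There were 27505 CD4 cells. Any pair of libraries shared 14 to 41 barcodes, at most 0.431% of the smaller library. Against the label of female mice, 4 libraries (vehicle day 2, vehicle day 3, PPCA day 3 and PPCA day 4) carried Y-linked transcripts, at 198 to 288 CPM (UMIs of a gene per 1000000 UMIs) in CD4 cells, and almost no Xist. The other 4 (active, onset, PPCA day 2 and vehicle day 4) carried Xist at 401 to 562 CPM. Groups were kept as labelled.

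The promoters of Klrk1, Klrc1, Klrc2 and Klre1 are printed because these 4 genes shared an expression pattern across the populations below. Each is the stretch of 250 bases before the RefSeq transcription start, in build GRCm38.p6, written 5′ to 3′ on the gene's own strand: Klrk1 at chr6:129623865-129624114 (minus strand), Klrc1 at chr6:129678974-129679223 (minus), Klrc2 at chr6:129660597-129660846 (minus) and Klre1 at chr6:129577963-129578212 (plus). Capitals mark the core motif of RUNX factors, TGTGGT, or its reverse complement, ACCACA.
Klrk1: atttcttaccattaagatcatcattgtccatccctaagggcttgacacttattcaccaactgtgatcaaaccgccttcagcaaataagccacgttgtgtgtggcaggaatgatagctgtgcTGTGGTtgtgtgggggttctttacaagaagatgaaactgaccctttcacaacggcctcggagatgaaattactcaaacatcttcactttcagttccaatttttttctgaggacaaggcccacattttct
Klrc1: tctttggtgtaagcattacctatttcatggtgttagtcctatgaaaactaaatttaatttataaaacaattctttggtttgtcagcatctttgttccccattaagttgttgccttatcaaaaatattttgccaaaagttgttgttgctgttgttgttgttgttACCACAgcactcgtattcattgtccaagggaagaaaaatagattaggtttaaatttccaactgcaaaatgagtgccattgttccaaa
Klrc2: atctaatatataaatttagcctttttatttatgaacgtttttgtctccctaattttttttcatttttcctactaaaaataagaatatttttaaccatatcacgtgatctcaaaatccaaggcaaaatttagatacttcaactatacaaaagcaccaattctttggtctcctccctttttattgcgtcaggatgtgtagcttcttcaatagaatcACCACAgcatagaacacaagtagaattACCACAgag
Klre1: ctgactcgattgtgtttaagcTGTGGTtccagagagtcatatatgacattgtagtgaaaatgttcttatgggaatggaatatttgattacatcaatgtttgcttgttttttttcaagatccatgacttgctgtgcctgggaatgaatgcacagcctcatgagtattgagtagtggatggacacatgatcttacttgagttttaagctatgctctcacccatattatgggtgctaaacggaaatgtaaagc
The first base of the RUNX match lay 129 bases before the start in Klrk1, 87 in Klrc1, 36 and 9 in Klrc2 and 229 in Klre1. Searched on both strands, TGTGGT was found in 4614 of the 32851 promoters of the same length (14.0%). Neither the T-box core TCACAC (in 12.3% of all promoters) nor the AP-1 motif TGANTCA (in 6.75%) was found in these 4 windows. Aligned in pairs, the 4 promoters were 44.3% to 50.0% identical. A match is a description of the letters and not a binding site. Klrd1 and Klrg1 had no promoter entry and are given by name only.

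In the order of protein-coding genes on chromosome 6 in RefSeq, Klre1, Klrd1, Klrk1, Klrc3, Klrc2 and Klrc1 follow each other directly, between Gabarapl1 and Klri1. Klrg1 lies elsewhere on the chromosome, between Mug2 and M6pr. The libraries read transcript ends, and the ends of Klrc1 and Klrc2 are partly alike. In the last 400 bases of the RefSeq transcripts, 51.9% of the stretches of 50 bases of Klrc1 also occur in Klrc2, and 20.4% of those of Klrc2 occur in Klrc1. How reads were divided between Klrc1 and Klrc2 is therefore uncertain. No such stretch was shared between Klrd1, Klrk1, Klre1 and Klrg1, or between any of these and the Klrc1 and Klrc2 pair.

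Klrd1, the CD94 gene, was present throughout the CD8 cells. Among the 3 gated populations, Klrk1, Klrc1, Klrc2 and Klre1 were nearly restricted to Ccl5-positive CD8 cells. Levels are UMIs summed over a population in a library, as CPM of that population's UMIs. They are compared between populations and not between genes, and fewer expressing cells cannot be told apart from less RNA per cell. In Ccl5-positive CD8 cells, Klrd1 had a lowest level of 239.7 CPM (vehicle day 3), a median of 285 and a highest of 331.2 CPM (PPCA day 2), with a mean of 282 ± 36.5 (SD, n = 8 libraries). In Ccl5-negative CD8 cells the lowest was 131.2 CPM, the median 175 and the highest 208.4 CPM. CD4 cells held 8.54 to 18.1 CPM, with a median of 12.1. The 3 populations therefore did not overlap, in the order Ccl5-positive CD8, Ccl5-negative CD8 and CD4. Klrd1 was higher in Ccl5-positive than in Ccl5-negative CD8 cells by 0.61 on the log2 scale (SE 0.034; edgeR quasi-likelihood test with Benjamini-Hochberg adjustment, adjusted p = 6.8e-12; higher in 8 of 8 libraries). In the counts pooled over libraries the Ccl5-negative CD8 level of Klrd1 was 13.7 times that of CD4 cells (exact 95% interval 13.0 to 14.4, counting error only).

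Klrk1, the NKG2D gene, ranged from 112.0 CPM (vehicle day 3) through a median of 181 to 297.1 CPM (onset) in Ccl5-positive CD8 cells. In Ccl5-negative CD8 cells it reached 1.04 to 3.35 CPM, from 186 UMIs in all, and in CD4 cells 0.616 to 3.88 CPM, from 250 UMIs. The lowest Ccl5-positive library thus stood far above the highest library of the other populations, and the low values of the other populations overlapped one another. The inhibitory NKG2A gene Klrc1 ranged from 46.8 to 106.5 CPM (median 82.1) in Ccl5-positive cells and from 0.0797 to 0.609 CPM in Ccl5-negative CD8 cells. The activating NKG2C gene Klrc2 ranged from 38.3 to 119.6 CPM (median 69.2) in the first and from 0 to 1.35 CPM in the second. Klre1 ranged from 43.9 to 128.8 CPM (median 81.7) against 0.0751 to 1.00 CPM. For each of these 4 genes every Ccl5-positive sum was above every Ccl5-negative sum.

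Klrg1, the cadherin receptor, was low everywhere. Its level in Ccl5-positive CD8 cells ran from 2.01 CPM (onset) through a median of 4.65 to 16.1 CPM (vehicle day 2), from 225 UMIs in all. Ccl5-negative CD8 cells held 2 UMIs of Klrg1 in all, with 6 of 8 libraries at 0. CD4 cells held 86 UMIs, at 0 to 1.33 CPM (median 0.536).

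In the comparison of Ccl5-positive with Ccl5-negative CD8 cells, with library as a block, 4298 of 10390 genes passed an adjusted p of 0.05 (41.4%), 19.5% in the higher direction. All 6 receptors passed and were higher in 8 of 8 libraries. With that share of all genes called, the count of 6 is no result in itself. The sizes stand beside a median of -0.018 over all genes. Klrc1 was higher by 7.91 on the log2 scale, Klrc2 by 7.32, Klre1 by 7.27, Klrg1 by 7.21 and Klrk1 by 6.18, with adjusted p by edgeR and Benjamini-Hochberg from 2.2e-22 (Klre1) to 3.7e-13 (Klrg1). Fitted folds this large rest on few UMIs on the low side. In pooled counts with exact 95% intervals (counting error only), the ratio was 86.9 for Klrk1 (75.1 to 101), 298 for Klrc1 (200 to 467), 198 for Klrc2 (142 to 283) and 185 for Klre1 (135 to 261). For Klrg1, with 2 UMIs below, it was 287 (78.6 to 2386). Klrd1 stood apart with a pooled ratio of 1.66 (1.62 to 1.70). Within the 4 libraries with Xist alone, the log2 differences were 0.67 for Klrd1, 5.95 for Klrk1 and 7.34 for Klrc1. Within the 4 with Y-linked transcripts they were 0.55, 6.40 and 8.63, and all 6 receptors passed in both sets.

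**Figure D1:**
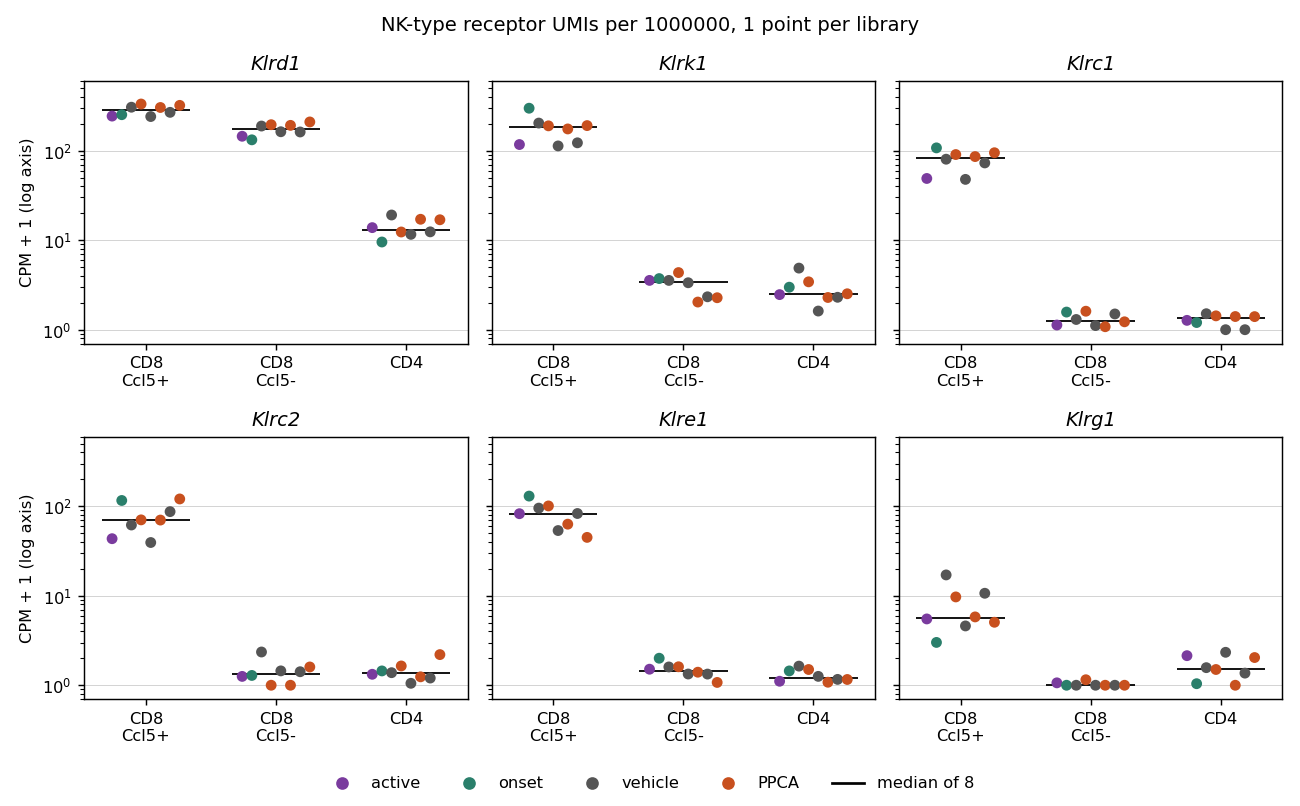
Each panel plots 1 receptor gene, with the level as CPM + 1 on a log axis and the 3 populations on the x axis. Each point is 1 of 8 libraries, coloured by group, and the line is their median. Klrd1 falls in steps from Ccl5-positive CD8 through Ccl5-negative CD8 to CD4 cells, while the other 5 genes are low in both populations outside the Ccl5-positive cells.

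Markers of other cell types moved with the same split. Summed over 7 NK genes, the markers reached 17.4 to 52.7 CPM in Ccl5-positive CD8 cells and 0.43 to 8.41 CPM in Ccl5-negative ones. Of these genes, Ncr1 reached 0 to 4.51 CPM, Klrb1c at most 0.58 CPM and Tyrobp at most 2.93 CPM in the Ccl5-positive cells. The rest of the NK sum, most of it in every library, came from Klra4, Klra7, Klra8 and Fcer1g. The 5 gamma-delta T cell genes summed to 83.8 to 288 CPM against 6.91 to 16.6 CPM, mostly from Tcrg-C2 and Tcrg-C4, with Trdc at 0.585 to 7.76 CPM and Sox13 at 0 in 7 libraries. The innate-like T cell list reached 12.4 CPM at most. In the 4084 Ccl5-positive cells without a UMI of these lists, a subset chosen after seeing the data, the pooled ratio over Ccl5-negative CD8 cells was 60.3 for Klrk1 (52.0 to 70.3). In the same subset it was 201 for Klrc1, 141 for Klrc2, 113 for Klre1, 317 for Klrg1 and 1.42 for Klrd1.

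Receptors need partners, adaptors and ligands, and these were followed from named lists. Their counts stand beside the 41.4% of all genes called in this comparison, 19.5% in the higher direction. Of 24 other receptors of the NK gene complex, 22 are in the tables and 7 were abundant enough to test. Of these, 5 were higher in Ccl5-positive CD8 cells and 1 was lower. The largest was Klri2, a partner of Klre1, at 8.93 on the log2 scale, followed by the Ly49 family genes Klra7 (4.57), Klra6 (4.35) and Klra1 (4.20), while Clec2i was lower (-0.28). Ly49 genes are near-identical copies that differ between mouse strains, so the division of reads among them is uncertain. Among 10 tested adaptor and signalling genes, 7 were higher and 1 lower, with a median of 0.18. Hcst, the NKG2D adaptor, was higher by 0.62, at 466.7 against 278.6 CPM on average, and Fyn, a Src family kinase, by 0.70. Inpp5d and Ptpn11, encoding phosphatases, were higher by 0.38 and 0.30, and Ptpn6, the phosphatase SHP-1 recruited by inhibitory receptors, was lower (-0.25). Tyrobp, the other adaptor of activating lectin receptors, stayed at or below 2.93 CPM in Ccl5-positive cells. Of 6 tested ligand genes, 4 were higher. Cdh1, encoding E-cadherin, a ligand of KLRG1, was higher by 4.38 (29.2 against 1.19 CPM on average), and the Qa-1 gene H2-T23 by 0.17.

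CD4 cells carried little of any receptor. With CD8 cells taken whole, 5367 of 11579 genes differed between CD8 and CD4 cells (46.4%, 23.4% higher in CD8), and all 6 receptors were higher in CD8 by edgeR with Benjamini-Hochberg adjustment. The log2 differences were 4.03 for Klrd1, 5.01 for Klrk1, 6.63 for Klrc1, 5.90 for Klrc2 and 6.47 for Klre1. For Klrg1 the difference was 1.58 (SE 0.45, adjusted p = 0.0093), with an adjusted p of 0.051 without the library block and 0.11 in the 4 libraries with Y-linked transcripts. Set against CD4 cells in pooled counts, the Ccl5-negative CD8 cells had 1.15 times the level of Klrk1 (0.947 to 1.40), 1.09 times that of Klrc1 (0.620 to 1.90) and 0.995 times that of Klrc2 (0.636 to 1.54). These intervals include 1. Klrg1 was lower in Ccl5-negative CD8 than in CD4 cells, at a ratio of 0.036 (0.00429 to 0.134).

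Over the 8 libraries together, Klrg1 in CD4 cells was higher where Foxp3, the master regulator gene of regulatory T cells, was detected. This division was added after seeing the data. The 1130 Foxp3-positive cells held 63 Klrg1 UMIs and the 26375 Foxp3-negative cells held 23. That is 10.8 against 0.169 CPM, a ratio of 64.1 (39.2 to 108). The pooled level in Ccl5-positive CD8 cells, 6.27 CPM, was below that of the Foxp3-positive CD4 cells, but most libraries had the reverse order. With PPCA on days 2, 3 and 4, Foxp3-positive CD4 cells held 6.31, 0 and 2.12 CPM. Ccl5-positive CD8 cells held 8.70, 4.80 and 4.05 CPM there. With vehicle these levels were 10.3, 24.1 and 8.84 CPM against 16.1, 3.60 and 9.66 CPM. The order was also reversed in onset, and the pooled order held only in active and vehicle day 3. The 63 UMIs were uneven between libraries, with 17 in active, 25 in vehicle day 3, 8 in vehicle day 2, 6 in PPCA day 2, 5 in vehicle day 4, 1 each in onset and PPCA day 4, and 0 in PPCA day 3. Of the 23 UMIs in Foxp3-negative cells, 12 were in PPCA day 4, where Klrg1 was 2.12 CPM in Foxp3-positive and 0.997 CPM in Foxp3-negative cells. The pooled ratio was 131 without PPCA day 4 (68.3 to 276) and 42.5 without vehicle day 3 (24.5 to 75.5). Klrd1 went the other way, at 4.13 against 12.9 CPM (ratio 0.321, 0.205 to 0.479), and Klrk1 had 2 UMIs in Foxp3-positive cells. Among CD4 cells with a Ccl5 UMI, Klrk1 reached 6.99 CPM against 1.06 in those without, a ratio of 6.57 (5.08 to 8.49), and Klrd1 17.9 against 11.8 CPM.

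To count expressing cells at equal depth, each cell was thinned to 2000 UMIs. The median UMIs per cell before thinning were 3858 to 6881 in Ccl5-positive CD8, 4381.5 to 7321 in Ccl5-negative CD8 and 3845.5 to 6150 in Ccl5-negative CD4 cells, and 146, 164 and 282 shallower cells were left out. In Ccl5-positive CD8 cells Klrd1 was detected in 33.7% to 43.4% of cells after thinning (54.9% to 68.3% before), and Klrk1 in 15.2% to 33.5% (21.1% to 42.8% before). Klrc1 was detected in 10.4% to 17.4% (18.2% to 29.1%), Klrc2 in 8.25% to 20.8% (16.2% to 31.2%), Klre1 in 7.48% to 18.3% (11.9% to 25.2%) and Klrg1 in 0.237% to 2.92% (1.05% to 4.55%). At least 1 of the 6 receptors was found in 45.8% to 60.5% of these cells (70.0% to 77.6%). In Ccl5-negative CD8 cells Klrd1 was detected in 21.3% to 30.9% (45.7% to 58.7%), Klrk1 in 0.140% to 0.619% and each other receptor in at most 0.383%. The CD4 Ccl5-negative cells, taken as the level that free RNA and misplaced cells can give, showed Klrd1 in 1.49% to 2.81% (3.80% to 6.49%) and Klrk1 in 0.0811% to 0.319%. The Klrk1 share of Ccl5-negative CD8 cells overlapped that reference, while the Klrd1 share was above it in every library.

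The authors' deposited table of cluster markers, which lists genes from a log2 fold change of 0.25 and a detected fraction of 0.1, gives the receptors' detection by cluster. In the authors' deposited table Klrk1 was detected in 45.1% of the cluster named CD8 TRM TEM, with a log2 fold change of 2.11 against other cells. In that authors' deposited table Klrc1 was found in 34.6% of the same cluster (1.31), Klrc2 in 34.3% (1.33) and Klre1 in 24% (1.27). Klrd1 was listed in the authors' deposited table for 2 clusters, at 56.4% in CD8 TRM TEM (1.55) and 56.5% in CD8 TCM (1.0). Klrg1 is in none of the table's 2100 rows.

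Within Ccl5-positive CD8 cells, each of Klrd1, Klrk1, Klrc1, Klrc2 and Klre1 was detected more often in cells with another of these 5 than in cells without it. At 2000 UMIs per cell, a median of 45.1% of the cells in a library held none of the 6, 27.9% held 1, 12.0% held 2, 8.91% held 3 and 4.03% held 4. At most 2.15% held 5 and 0.172% held 6. Among cells with Klrk1, a median of 35.8% held Klrc1, against 7.43% of the cells without Klrk1. Cells with Klrc1 held Klrc2 in a median of 41.3% against 7.99%, a pair for which shared transcript ends can add to the value. Cells with Klre1 held Klrk1 in 56.6% against 18.4%. Klrd1 parted the cells less, as Klrk1 was found in 32.8% of the cells with Klrd1 and in 14.5% of those without. All 20 ordered pairs among Klrd1, Klrk1, Klrc1, Klrc2 and Klre1 were higher in the cells with the other receptor in 8 of 8 libraries. The inhibitory Klrc1 and the activating Klrc2 and Klrk1 thus overlapped within cells. Klrd1 was found in 29 of the 69 cells with Klrg1 (42.0%). By library its median share was 40.4% of the cells with Klrg1 and 38.2% of the rest, higher in 4 of 8 libraries. These medians were 42.0% and 22.2% for Klrk1 (higher in 8 of 8 libraries) and 27.8% and 14.6% for Klrc1 (5 of 8). For Klrc2 they were 27.9% and 12.8%, and for Klre1 20.7% and 11.0% (each 7 of 8). Cells with Klrg1 numbered only 2 to 17 per library. With Ccl5-positive cells taken from 2 UMIs of Ccl5 upward, Klrc1 was found in 36.1% of the cells with Klrk1 and in 12.0% of those without.

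**Figure D2:**
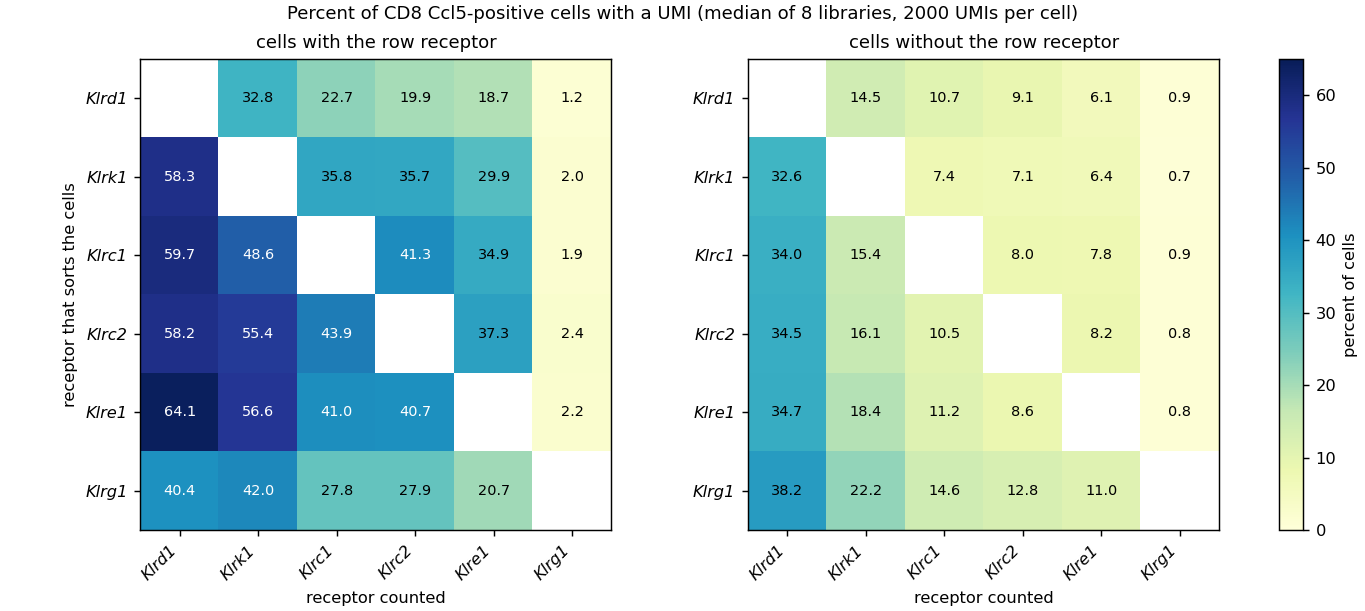
The heat maps give the percent of CD8 Ccl5-positive cells with a UMI of the column receptor, among cells with the row receptor (left) and without it (right), as medians over 8 libraries at 2000 UMIs per cell. Klrk1, Klrc1, Klrc2 and Klre1 form a block of shares from 29.9 to 56.6% on the left that are 6.4 to 18.4% on the right.

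Ccl5-positive CD8 cells with Klrk1 were set against those without it, to see which genes go with NKG2D. After thinning there were 1450 cells with Klrk1 (100 to 350 per library) and 4966 without. Of 6668 genes, 1239 passed by edgeR with Benjamini-Hochberg adjustment (18.6%), 9.16% higher and 9.42% lower. Among genes averaging 20 CPM or more that moved one way in all 8 libraries, the highest were Klri2 (2.79 on the log2 scale), Klre1 (2.41), Klrc1 (2.04), Klrc2 (2.01) and Fgl2 (1.62), a gene for a secreted fibrinogen-like protein. Klrd1 was higher by 0.99 (SE 0.067), so all 4 other members that could be tested were called, and Klrg1 was too low to test. Among the lowest were Dapl1 (-3.98), Ccr9 (-3.49), encoding a gut-homing chemokine receptor, Actn1 (-3.48), encoding an alpha-actinin, and Plac8 (-2.73).

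By list, the cells with Klrk1 were higher in 16 of 18 cytotoxic and effector genes and lower in 1. The largest of the higher genes were Zeb2 (1.47), a transcription factor of effector cells, the chemokine gene Ccl3 (1.32) and Gzmk (1.28), encoding granzyme K, while Gzmm, encoding granzyme M, was lower (-1.27). All 6 tested checkpoint genes were higher, led by Pdcd1 (1.14), which encodes PD-1, Entpd1 (1.05), Lag3 (0.96) and Ctla4 (0.73). Of 9 tissue residence genes, 6 were higher, led by Itga1 (1.43), encoding the CD49a integrin, Cxcr6 (1.21) and Rgs1 (0.97), and Cd69 was lower (-0.22). All 10 naive and memory genes were lower, among them Id3 (-2.61), Ccr7 (-2.52) and Lef1 (-2.42). Among 8 circulation and exit genes 3 were higher and 4 lower, the lower including S1pr1 (-1.60), encoding the receptor for tissue exit, and Klf2 (-1.32). The 3 higher, named after their values were seen, were Cx3cr1 (1.26) and the integrin genes Itgb1 (0.83) and Itga4 (0.36). Of 10 adaptor and signalling genes 3 were higher, Inpp5d (0.53), Hcst (0.38) and Fyn (0.33), and Ptpn6 was lower (-0.74). Of 5 ligand genes 4 were higher, among them Cdh1 (1.05) and H2-T23 (0.27).

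The same comparison for Klrd1, in 2495 cells with and 3921 without, called fewer genes. It called 387 of 6625 genes (5.84%), 2.67% higher and 3.17% lower. By the same rule the 4 testable receptors were the highest genes, Klre1 (1.42, SE 0.095), Klrc1 (1.22), Klrk1 (1.16) and Klrc2 (1.12), followed by Lrrk1 (0.86), encoding a kinase. The lowest were Adk (-1.0), encoding adenosine kinase, Id3 (-0.96), an inhibitor of E proteins, Dtx1 (-0.77), encoding a ubiquitin ligase of the Notch pathway, Igfbp4 (-0.77) and Tdrp (-0.73). Of 18 cytotoxic and effector genes 12 were higher and none lower, led by the granzyme genes Gzma (1.49, higher in 7 of 8 libraries) and Gzmb (1.12, in 6 of 8), then Ccl3 (0.81) and Gzmk (0.77). Of 10 naive and memory genes 6 were lower, among them Ccr7 (-0.57) and Slamf6 (-0.47). Of 6 checkpoint genes 2 were higher, Entpd1 (0.65) and Tox (0.43). Whether the Klrd1 and Klrk1 comparisons differ for any gene was not tested.

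Depth, the gate gene and markers of other cell types moved with both divisions. Before thinning, cells with Klrk1 had a median of 4002 UMIs and cells without it 5840, and for Klrd1 these were 4973 and 5583. Ccl5 itself was higher by 1.16 in cells with Klrk1 and by 0.81 in cells with Klrd1. The 5 gamma-delta T cell genes summed to 220 to 719 CPM (median 329) with Klrk1 and 100 to 339 CPM (median 140) without. For Klrd1 the medians were 217 and 145 CPM. The NK gene sum had medians of 6.82 and 28.5 CPM with and without Klrk1, and of 32.1 and 20.0 CPM with and without Klrd1. Their part in the results was not tested. With unthinned cells the number of genes called was 2736 for Klrk1 and 155 for Klrd1, and with Ccl5 from 2 UMIs it was 603 and 213. Without the library block, the Klrd1 comparison had 5 genes called, Klrc1, Klrk1 and Klre1 among them, with Klrc2 at 1.17 (adjusted p = 0.069 by edgeR), and the Klrk1 comparison had 713.

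**Figure D3:**
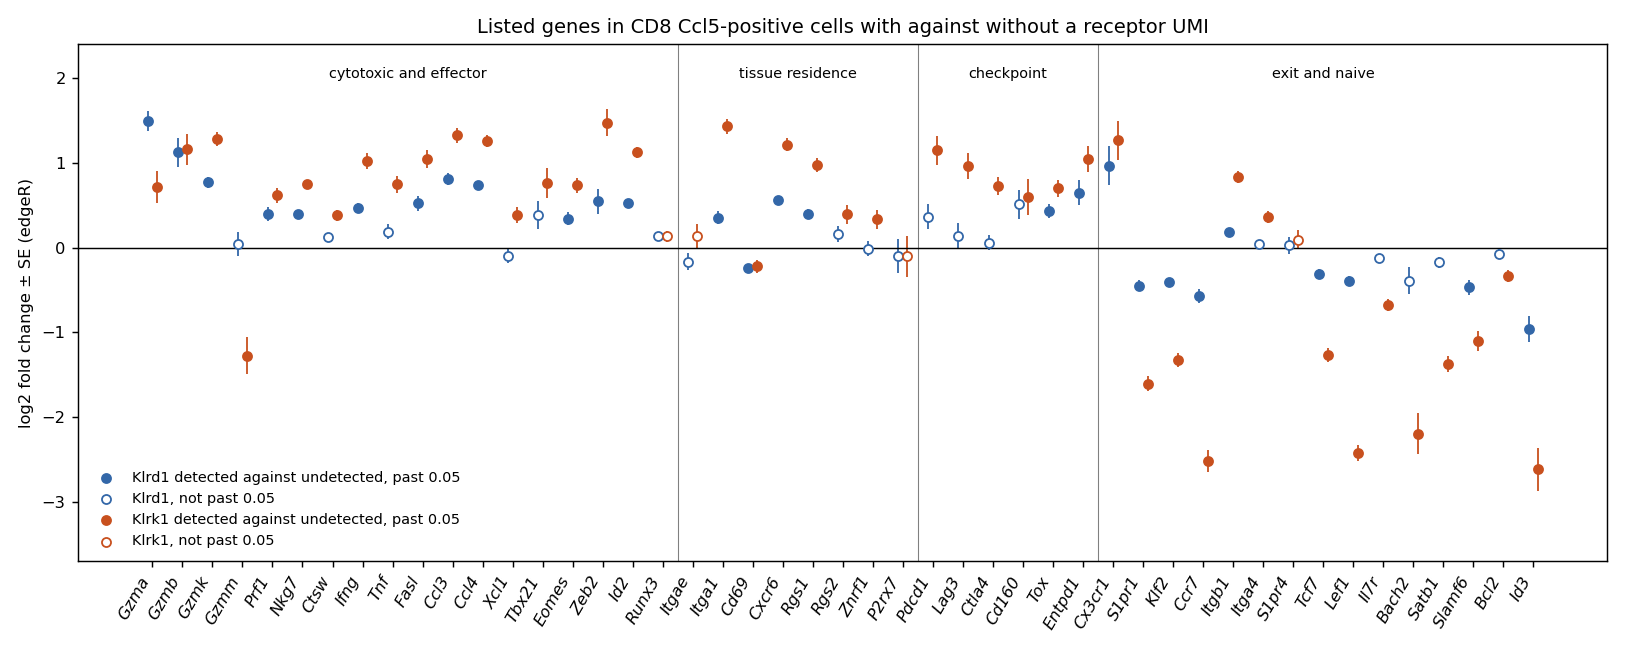
Points are log2 fold changes with their SE (edgeR, 8 libraries) for most listed genes that could be tested, in CD8 Ccl5-positive cells with against without a UMI of Klrd1 (blue) or Klrk1 (orange), and filled points pass an adjusted p of 0.05. Ccr7 lies at -0.57 for Klrd1 and -2.52 for Klrk1, and Gzma at 1.49 for Klrd1.

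Klrg1 marked few cells, 69 of 6416, with 2 to 17 in a library. Among genes picked by the same rule, cells with Klrg1 carried more Gzma, at 3.93 on the log2 scale, Gzmb (2.86), Zeb2 (2.60), Il18rap (2.08), encoding a chain of the interleukin-18 receptor, and Ctla2b (1.77). For that rule, levels under 3 UMIs were set to 3 UMIs. With 2 to 17 cells in a library, a scarce gene can thus count as higher in every library without a UMI. Only abundant genes can count as lower in every library, so the rule says little about direction here. Of 5063 genes, 197 passed by edgeR with Benjamini-Hochberg adjustment (3.89%), 0.237% higher and 3.65% lower, and the lowest 5 were the ribosomal protein genes Rps20 (-1.34), Rpl12 (-1.33), Rps19 (-1.29), Rps28 (-1.28) and Rps27a (-1.25). The median of all genes was shifted to -0.42 here. With DESeq2 size factors in place of TMM scaling, 37 genes were higher and 55 lower, in place of 12 and 185, and without the active library 116 were called in all. By list, 4 of 18 cytotoxic and effector genes were higher and 1 was lower, and 6 of 10 naive and memory genes were lower, beside a median of all genes that is itself below 0. In pooled counts, scaled by total UMIs in place of TMM and without the library block, the ratio was 23.5 for Gzma (20.1 to 27.4), 9.39 for Gzmb (6.57 to 13.1), 9.10 for Zeb2 (6.31 to 12.8) and 10.6 for Cx3cr1 (6.22 to 17.1), a receptor of circulating effector cells. These intervals cover counting error only and take UMIs of the same few cells as independent. Cx3cr1 and Itgae are list members named after their values were seen. Itgae, encoding the CD103 integrin of resident cells, had 0 UMIs in the cells with Klrg1 against 1032 in the others, which allows a ratio of up to 0.329. None of the other 5 receptors passed with TMM scaling of thinned counts, with Klrk1 at 0.63 (SE 0.26, adjusted p = 0.18 by edgeR). That depended on the processing. With DESeq2 size factors Klrk1 (1.10, adjusted p = 0.0011 by edgeR), Klrc1 (1.23) and Klre1 (1.26) passed, and with unthinned counts all 5 did, from 0.52 for Klrd1 to 1.47 for Klre1. The pooled ratio was 2.05 for Klrk1 (1.57 to 2.63) and 1.17 for Klrd1 (0.871 to 1.54).

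PPCA was compared with vehicle to ask whether treatment moved the receptors, with harvest day as a block and 3 libraries in each arm. In Ccl5-positive CD8 cells, 1 of 10005 genes passed by edgeR with Benjamini-Hochberg adjustment (0.01%), while 635 had an unadjusted p under 0.05, and DESeq2 called 23. The 1 gene, Ifit3 (1.93, adjusted p = 0.026), an interferon-induced gene, is named after its value was seen. None of the 6 receptors passed. Without the libraries of day 2, day 3 or day 4 in turn, 23, 4 and 125 genes were called.

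Klrd1 in Ccl5-positive CD8 cells was 305.0, 239.7 and 267.2 CPM with vehicle and 331.2, 302.8 and 319.9 CPM with PPCA on days 2, 3 and 4. PPCA was the higher on 3 of 3 days, with means of 271 ± 32.8 and 318 ± 14.3 CPM (SD, n = 3 libraries each), and the lowest PPCA library lay below the highest vehicle library. The fitted difference was 0.16 on the log2 scale (SE 0.10, adjusted p = 0.82 by edgeR). Klrk1 was 202.4, 112.0 and 121.5 CPM with vehicle and 188.5, 173.9 and 189.7 CPM with PPCA. For NKG2D the vehicle libraries spread more than the PPCA ones, day 2 vehicle was the highest of all 6, and the difference was 0.31 (SE 0.15, adjusted p = 0.78 by edgeR). It was 0.55 without day 2 (adjusted p = 0.088 by edgeR), 0.25 without day 3 and 0.13 without day 4. Klrd1 was 0.10 without day 4.

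Klrc1 was 79.3, 46.8 and 72.0 CPM with vehicle and 89.5, 84.9 and 93.8 CPM with PPCA. Here the arms did not overlap, but the difference of 0.39 (SE 0.13) did not pass (adjusted p = 0.68 by edgeR). It was 0.26 without day 3. Klrc2 was 60.7, 38.3 and 86.0 CPM with vehicle and 69.4, 69.1 and 119.6 CPM with PPCA. PPCA was higher on each day while the arms overlapped, at 0.42 (SE 0.13, adjusted p = 0.57 by edgeR). When the libraries with Y-linked transcripts were marked by a further factor, Klrc2 passed at 0.41 (adjusted p = 0.035 by edgeR) and Klrc1 had an adjusted p of 0.060 at 0.38, in a fit that calls 166 genes and has fewer residual degrees of freedom than the 2 of the fit above.

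Klre1 was 94.3, 52.5 and 81.9 CPM with vehicle and 99.8, 62.0 and 43.9 CPM with PPCA. PPCA was the higher on days 2 and 3 and the lower on day 4, for a difference of -0.27 (SE 0.18, adjusted p = 0.83 by edgeR), which turned to 0.033 without day 4 and was -0.44 without day 2 and -0.42 without day 3. Klrg1 was 16.1, 3.60 and 9.66 CPM with vehicle and 8.70, 4.80 and 4.05 CPM with PPCA, a difference of -0.79 (SE 0.30, adjusted p = 0.73 by edgeR), with overlapping arms and PPCA the higher on day 3. In Ccl5-negative CD8 cells 0 of 11117 genes passed by edgeR (0%), with 833 at an unadjusted p under 0.05 and 32 by DESeq2. Klrd1 there differed by 0.14 (adjusted p = 0.79). In CD4 cells 0 of 11602 passed by edgeR (0%), with 795 at an unadjusted p under 0.05 and 35 by DESeq2, and Klrd1 differed by 0.059 (SE 0.23). The share of Ccl5-positive cells among CD8 cells also varied, from 16.8% (PPCA day 3) to 45.8% (PPCA day 2), and Ccl5 in the gated cells from 4939 to 10241 CPM, and their part in these values was not tested.

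**Figure D4:**
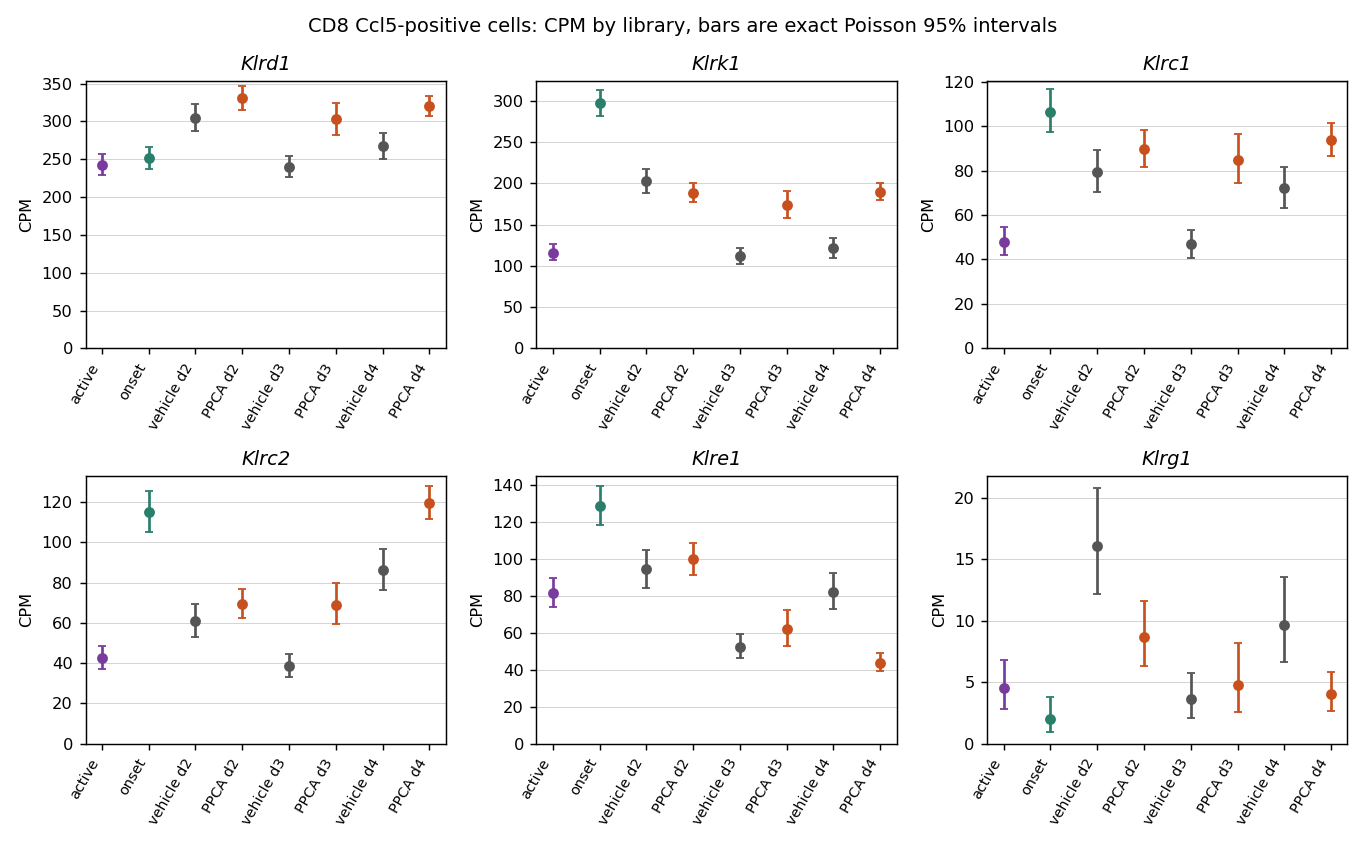
Each panel plots 1 receptor in CD8 Ccl5-positive cells, in CPM by library, with exact Poisson 95% intervals for counting error. Klrd1 lies between 239.7 and 331.2 CPM in all 8 libraries, whereas Klrk1 in the onset library (297.1 CPM) is the highest and in the vehicle day 3 library (112.0 CPM) the lowest.

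Active disease and onset have 1 library each, so there is no test, and the exact 95% Poisson intervals cover counting error only. In Ccl5-positive CD8 cells the active library held less of the NKG2 genes. Klrk1 was 116.1 CPM (106.8 to 126.1) in active and 297.1 CPM (281.4 to 313.5) in onset, a log2 ratio of -1.36. Klrc1 was 47.9 CPM (42.0 to 54.5) in active and 106.5 CPM (97.1 to 116.5) in onset, Klrc2 was 42.4 CPM (36.8 to 48.6) and 115 CPM (105 to 125), and Klre1 was 81.5 CPM (73.7 to 89.9) and 128.8 CPM (118.5 to 139.8). Klrd1 had overlapping intervals, at 242.5 CPM (228.9 to 256.7) and 251.4 CPM (236.9 to 266.5). Klrg1 was 4.51 CPM in active and 2.01 CPM in onset, from 22 and 9 UMIs. The onset level of Klrk1, Klrc1 and Klre1 was the highest of all 8 libraries, while the active level of Klrk1, Klrc1 and Klrc2 was next to the lowest, just above vehicle day 3.

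The gate held different cells in the active and onset libraries, and its part in these differences was not tested. Ccl5-positive cells were 24.3% of CD8 cells in active and 42.6% in onset. In those cells Ccl5 was 4939 against 10241 CPM, and Nkg7, a cytotoxic granule gene, 1102 against 1520 CPM. With Ccl5 from 2 UMIs, the log2 ratios of active to onset were -1.22 for Klrk1, -1.01 for Klrc1, -1.31 for Klrc2, -0.51 for Klre1 and -0.074 for Klrd1. In the cells without NK, gamma-delta or innate-like UMIs, Klrk1 was 36.1 CPM in active and 213 CPM in onset. Outside the Ccl5-positive cells Klrk1 was 2.56 CPM in active and 2.72 CPM in onset in Ccl5-negative CD8 cells, with overlapping intervals.

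Across the 24 sums of 8 libraries by 3 populations, the genes whose log2(CPM + 1) was most like a receptor's, among 7713 genes, were mostly other receptors for the NKG2 group. The points share libraries, and the populations dominate the correlation, so it is a description with no test. For Klrk1 they were Klrc1 (Pearson r 0.994), Klre1 (0.991) and Dapk2 (0.991), encoding a death-associated protein kinase. For Klrc1 they were Klrk1, Dapk2 and Klrc2, for Klrc2 they were Klrc1, the adhesion receptor gene Adgrg1 and Klrk1, and for Klre1 they were Dapk2, Klrk1 and Klrc1. For Klrd1 they were Cd8a (0.983), Cd8b1 (0.983) and Racgap1 (0.982), the first 2 of which set the gate. For Klrg1 they were Hopx (0.921), Cx3cr1 (0.920) and Zeb2 (0.920).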

How the data were processed

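The authors deposited UMI counts per gene and cell barcode for 8 libraries. Per the file headers they were made with Cell Ranger 6.0.0, per the submitters' processing notes with Cell Ranger 6.1.2, and Seurat is also named. No genome build is given in the sources used here. The authors' deposited marker table gives log2 fold changes and detected fractions for 7 clusters, and how it was filtered is read from its values. The receptors and gene lists were chosen with earlier results of these data known.

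Cells with at least 500 genes and under 10% mitochondrial UMIs were kept, and the barcodes with the highest Scrublet scores were removed (scanpy 1.11.5, 0.8% per 1000 barcodes). Counts were summed per library and population and tested with edgeR 4.0.16 (R 4.3.3; quasi-likelihood test, TMM, filterByExpr, two-sided, Benjamini-Hochberg over all genes tested, threshold 0.05). PPCA against vehicle had harvest day as a block, the other comparisons the library. Libraries of the same day deviated together, with correlations of 0.262, 0.324 and 0.502 in Ccl5-positive CD8 cells, 0.357 to 0.568 in Ccl5-negative CD8 cells and 0.372 to 0.571 in CD4 cells. The comparisons of cells with and without a receptor used cells thinned to 2000 UMIs (seed 1). Intervals are exact at 95% and cover counting error only. DESeq2 1.42.0 and other settings served as alternatives.

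Named genes are the 6 receptors, up to 4 called members per list by size, and the 5 highest and 5 lowest called genes per receptor comparison at an average of 20 CPM or more that moved one way in all 8 libraries. To count directions by library, levels under 3 UMIs were set to 3 UMIs. In simulated counts 200 genes were changed 2-fold, with the same dispersion for every gene and no effect of day or library. The share recovered was 79% for PPCA in Ccl5-positive CD8 cells (10005 genes, 9 false calls) and 98% for Ccl5 (10390 genes, 10 false calls). It was 92.5% for Klrd1 (6625 genes, 12 false calls), 92% for Klrk1 (6668 genes, 8) and 17.5% for Klrg1 (5063 genes, 27). These shares are therefore not the power of the tests on the real libraries. The result of 1 list member is not reported here.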

Additional observations from a re-analysis of the deposited data

How the results depend on the processing

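The differences of the 6 receptors between Ccl5-positive and Ccl5-negative CD8 cells kept their direction and their side of the threshold under every alternative that gave a value, 19 for each gene and 17 for Klrg1. Counts of called genes moved more. For PPCA in Ccl5-positive CD8 cells (1 gene), DESeq2 called 23, no low-count filter 147, a factor for sex-linked transcripts 166, thinned cells 16, no cell filter 2 and no doublet removal 2, and leaving out 1 day gave 4 to 125. In Ccl5-negative CD8 cells (0 genes) the same settings gave 32 by DESeq2, 183 without a low-count filter, 360 with the sex-linked factor, 3 with thinning, 2 without cells with B or myeloid UMIs, and 0 to 184 without 1 day. In CD4 cells (0 genes) they gave 35, 135 and 160, and 0 to 44 without 1 day.

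For Ccl5-positive against Ccl5-negative CD8 cells (4298), the libraries with Y-linked transcripts alone gave 2735, and for CD8 against CD4 cells (5367) thinning gave 3255. For the Klrd1 comparison (387) DESeq2 gave 208, the libraries with Xist 165, those with Y-linked transcripts 163, unthinned cells 155 and Ccl5 from 2 UMIs 213. For Klrk1 (1239) these were 819, 800, 673, 2736 and 603. For Klrg1 (197), DESeq2 size factors gave 92, DESeq2 93, no filter 336, the libraries with Xist 19, those with Y-linked transcripts 5, unthinned cells 530, Ccl5 from 2 UMIs 48, and leaving out 1 library 116 to 181. The share of cells with any receptor, 53.6% on average, was 40.5% at 1000 UMIs per cell.

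Without the block that pairs libraries by day or populations by library, the counts were 0 for PPCA in Ccl5-positive CD8 cells, 1972 for Ccl5, 2007 for CD8 against CD4, 5 for Klrd1 and 713 for Klrk1. Signs turned only where the difference was small or uncalled. With PPCA, Klre1 was 0.033 without day 4. Klrk1 in Ccl5-negative CD8 cells was 0.15 without day 3 and 0.0022 with Ccl5 from 2 UMIs. In CD4 cells Klrk1 was -0.0095 without a low-count filter, -0.14 without the day block, -0.31 and -0.12 without day 3 and day 4, -0.043 without a cell filter, -0.046 without doublet removal and -0.061 without B or myeloid cells, and Klrd1 was -0.13 and -0.14 without day 3 and day 4. With Klrg1, Klrd1 was 0.13 with DESeq2 size factors, 0.076 by DESeq2 and 0.52 unthinned, and Klrk1 was -0.030 in the libraries with Y-linked transcripts. The cause of these changes was not tested. Depth limits the Klrg1 ratio, with 2 UMIs in Ccl5-negative CD8 cells.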

Other observations

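Receptors of the Ly49 family and of the Klri genes divided in the Ccl5-positive CD8 cells with and without Klrk1, counted after seeing the data in pooled thinned cells. Klri2 had 201 UMIs in the cells with Klrk1 and 91 in the more numerous cells without, a CPM ratio of 7.56 (exact 95% interval 5.88 to 9.80), and Klri1 had 23 and 4 (19.7, 6.73 to 78.3). Klri1 and Klri2 encode the partners of the Klre1 chain. Klra7 had 2 UMIs in cells with Klrk1 and 156 in cells without, a ratio of 0.0439 (0.00527 to 0.161), and Klra1 had 74 and 546 (0.464, 0.359 to 0.593). Klra5 went the other way, with 26 and 21 UMIs (4.24, 2.29 to 7.93). Reads of the Ly49 genes may be divided wrongly among near-identical copies.

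T cells with neither a CD4 nor a CD8 UMI, 17700 cells, held Klrk1 at 10.7 CPM in pooled counts, 6.09 times the CD4 level (5.28 to 7.05), and Klre1 at 3.66 CPM, 12.4 times (8.91 to 17.5), while Klrg1 was at 1.19 times. The 3144 cells with UMIs of both held Klrd1 at 64.6 CPM and Klrk1 at 16.3 CPM. By library, the cells with neither UMI held the NK genes at a sum of 12.0 to 53.0 CPM, against 0.154 to 3.28 CPM in CD4 cells. Their innate-like list summed to 7.79 to 35.4 CPM, against 0.154 to 1.64 CPM. The part of such cells in these ratios was not tested. Neither set enters a tested comparison.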
